A study of Caenorhabditis elegans with 2 samples.

Results

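The proteasome subunit genes of Caenorhabditis elegans were described here by where the transcription factor DVE-1 was recovered along their promoters. The members were the 33 protein-coding genes whose names start with pas-, pbs-, rpn- or rpt-, out of 19973 protein-coding genes that the WBcel235 (ce11) annotation places on its 6 nuclear chromosomes. They comprised 7 alpha and 7 beta subunit genes of the 20S core particle (pas- and pbs-), 6 ATPase genes of the 19S regulatory particle (rpt-) and 13 non-ATPase genes of the 19S particle (rpn-). The data were ChIP-seq peak lists from whole hermaphrodites at the L4 larval stage, with 1 group of 2 biological replicates. The worms were of strain OP398, genotype unc-119(tm4063) III; wgIs398, a stable transgenic line in which DVE-1 carries GFP and FLAG at its C terminus, and both replicates share this genotype. Chromatin was fragmented by sonication and precipitated with an antibody against GFP, so every value concerns the tagged protein and averages all tissues of the animal. The labels do not name the promoter of the fusion or say whether untagged dve-1 remained, and there was no group without the fusion, so no comparison between conditions and no test was possible.

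The proteasome is the protease that degrades proteins tagged with ubiquitin. Its 20S core is a barrel of stacked rings: alpha subunits form the outer rings that gate the entrance, and beta subunits form the inner rings, some of which carry the proteolytic sites. The 19S particle caps the barrel: its base holds a ring of AAA ATPases that unfolds the substrate, and its lid and scaffold subunits bind ubiquitin and remove it. DVE-1 is a homeodomain protein best known in C. elegans for the mitochondrial unfolded protein response, and SKN-1 is the factor best known in this animal for raising proteasome subunit transcription when the proteasome is impaired.

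A gene was called marked when the summit (the highest point) of a peak from the optimal list lay in a window around one of its annotated 5' ends, reaching 1000 bp upstream and 200 bp into the gene. The optimal list holds the 7262 peaks that passed the authors' reproducibility threshold. Of the 33 proteasome genes, 22 were marked (66.7%), against 21.7% of all protein-coding genes (4327 of 19973). No proteasome gene lies on the X chromosome, and 21.1% of the autosomal genes were marked. The 22 genes held 25 distinct peaks: pas-5, rpn-6.1 and rpn-8 had 2 each, and the other 19 genes had 1 each.

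Sequence at 8 of these summits is given first, because the same short run of letters recurs beside several of them. They include rpn-3 and pbs-1, with the strongest peaks of the non-ATPase and beta classes, and peaks with several motif matches or shared with a neighbouring gene. Each sequence is the WBcel235 reference within 100 bp of the pooled summit, cut to bases in no annotated exon, written 5' to 3' along the strand of the proteasome gene. Capitals mark matches on either strand to 5 motifs. The letters GTCAT are a core of SKN-1 sites, and so, with another first base, are the letters ATCAT. GATA factors were represented by the letters TGATAA, and the heat shock element by the letters GAANNTTC. The longer run is ATTGTCAT, which contains the first of these cores. A match on the opposite strand appears as the reverse complement, as at rpt-4. GAGACG was searched too and has no match in these 8.
rpn-3, chrIII:8447096-8447270, plus strand: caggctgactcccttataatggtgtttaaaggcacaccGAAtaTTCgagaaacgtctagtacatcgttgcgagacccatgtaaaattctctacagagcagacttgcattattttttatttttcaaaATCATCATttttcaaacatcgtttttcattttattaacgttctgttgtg
rpn-2, chrIII:6198761-6198961, plus strand: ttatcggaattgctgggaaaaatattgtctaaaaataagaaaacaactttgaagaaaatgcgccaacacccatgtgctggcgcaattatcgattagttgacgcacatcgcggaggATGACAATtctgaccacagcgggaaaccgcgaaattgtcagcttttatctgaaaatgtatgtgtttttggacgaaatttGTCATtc
rpn-6.1, chrIII:6961261-6961461, minus strand: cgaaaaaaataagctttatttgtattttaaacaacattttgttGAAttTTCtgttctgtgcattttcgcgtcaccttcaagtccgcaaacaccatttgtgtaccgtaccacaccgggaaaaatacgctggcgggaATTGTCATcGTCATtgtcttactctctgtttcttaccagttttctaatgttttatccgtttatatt
rpn-7, chrIV:9316216-9316347, plus strand: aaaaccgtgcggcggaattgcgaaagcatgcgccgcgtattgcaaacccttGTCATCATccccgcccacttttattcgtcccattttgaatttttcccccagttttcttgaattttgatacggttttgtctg
rpn-12, chrII:11652871-11653071, plus strand: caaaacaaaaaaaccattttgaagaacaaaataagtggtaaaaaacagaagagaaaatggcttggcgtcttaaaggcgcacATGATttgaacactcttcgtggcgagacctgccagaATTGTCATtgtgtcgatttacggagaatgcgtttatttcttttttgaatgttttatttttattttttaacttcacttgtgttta
rpt-4, chrII:43715-43906, minus strand: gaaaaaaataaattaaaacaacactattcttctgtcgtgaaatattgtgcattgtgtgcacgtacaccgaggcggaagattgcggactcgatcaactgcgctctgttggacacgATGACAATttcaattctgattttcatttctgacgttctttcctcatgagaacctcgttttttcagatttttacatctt
rpt-6, chrIII:12370101-12370301, plus strand: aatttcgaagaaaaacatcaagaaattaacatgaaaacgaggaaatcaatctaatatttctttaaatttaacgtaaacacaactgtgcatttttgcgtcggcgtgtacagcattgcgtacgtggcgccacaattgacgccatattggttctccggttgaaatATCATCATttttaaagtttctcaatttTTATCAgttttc
pbs-1, chrIV:1709836-1710036, minus strand: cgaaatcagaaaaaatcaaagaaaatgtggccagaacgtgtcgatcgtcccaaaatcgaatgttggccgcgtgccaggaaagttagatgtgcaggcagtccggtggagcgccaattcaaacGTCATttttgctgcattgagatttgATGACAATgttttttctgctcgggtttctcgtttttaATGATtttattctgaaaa

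The run ATTGTCAT was noticed by reading these sequences and then searched everywhere, so its count is a description. It lay within 100 bp of the summit in 7 of the 25 proteasome peaks (28%), against 66 of the 3992 optimal peaks in any promoter window (1.65%) and 1.51% of all 7262 optimal peaks. The 7 peaks were those of pbs-1, rpt-2, rpt-4, rpn-2, rpn-6.1, rpn-11 and rpn-12, so 6 of the 7 were at 19S genes, which hold 17 of the 25 peaks (68%). None was at a 20S alpha gene. The printed sequences from which the run was picked were of 19S genes except for pbs-1, and none was of an alpha gene. Because of that choice, the classes cannot be compared for the run. Of the 8 printed peaks 5 held it, and of the other 17 proteasome peaks 2 held it (11.8%), against 59 of the 3967 promoter peaks outside the proteasome genes (1.49%). All 7 matches were centred within 50 bp of the summit, and all 7 lay downstream of it in the direction of the proteasome gene. All of these peaks except that of rpn-11 also lay in the window of a gene on the opposite strand. The side was not counted over all promoter peaks. Among the matches in all promoter peaks, 57.6% were within 50 bp. A consensus of SKN-1 sites, also searched after the sequences were seen, was in 9 of 25 proteasome peaks (36%), against 11.8% of promoter peaks. The genes at these peaks were the 7 with ATTGTCAT, and rpn-8 and rpt-6. The consensus count thus largely repeats that of the run and is not a separate result. In the 500 bp upstream of the 5' end, this consensus was in 39.4% of members and 25.2% of all genes.

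The distance of the ATTGTCAT centre from the summit was 10.5 bp at rpn-11, 18.5 bp at rpn-2, 20.5 bp at rpn-12 and 26.5 bp at rpt-4. It was 38.5 bp at rpn-6.1, 44.5 bp at rpt-2 and 49.5 bp at pbs-1. The run stood in gene orientation at rpn-6.1, rpn-11, rpn-12 and rpt-2 and on the opposite strand at pbs-1, rpn-2 and rpt-4, so its orientation was mixed. The median centre lay at -132.5 bp from the 5' end. Only the pas-2 promoter held the run among unmarked members when the 500 bp upstream of the outermost 5' end were searched instead. In that search it was in 6 of 33 members (18.2%), 3.63% of all marked genes and 3.19% of all genes.

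The shorter GTCAT was within 100 bp of the summit in 17 of 25 proteasome peaks (68%), against 32.4% of promoter peaks. Of its 24 matches, 19 were within 50 bp of the summit, against 55.6% of the matches in all promoter peaks. Of the 24, 19 lay downstream of the summit in the direction of the gene, a side not counted over all promoter peaks. ATCAT was in 15 of 25 (60%), against 42.1% of promoter peaks. TGATAA was rarer beside the proteasome summits: 2 of 25 proteasome peaks held it (8%, at rpn-6.1 and rpt-6), against 39.6% of promoter peaks. In the 500 bp upstream of the 5' end, TGATAA was in 42.4% of members and 43.7% of all genes. GTCAT was there in 72.7% of members and 52.1% of all genes, and in 16 of 22 marked and 8 of 11 unmarked members. ATCAT was there in 78.8% of members and 71.1% of all genes. GAANNTTC was in 2 proteasome peaks (8%, at rpn-3 and rpn-6.1) and 9.02% of promoter peaks, and GAGACG in 3 (12%, both pas-5 peaks and rpn-9) and 20.7%. The median GC content within 100 bp of the summit was 36.3% over proteasome peaks and 38.3% over promoter peaks. A match gives letters in the reference and no information on which protein was bound there.

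In the optimal list the marked share was highest in the 19S non-ATPase class. It was 11 of 13 non-ATPase genes of the 19S particle (84.6%), 4 of 6 ATPase genes (66.7%), 4 of 7 beta genes (57.1%) and 3 of 7 alpha genes (42.9%). All 4 shares were above the 21.7% of all protein-coding genes. With each summit given only to the gene with the nearest 5' end, the alpha share was 1 of 7 (14.3%), below that of all genes (3800 of 19973). The order of the 19S classes also turned: by the strongest regions of replicate 2 alone, 5 of 6 ATPase genes (83.3%) and 9 of 13 non-ATPase genes (69.2%) were marked. Taken by particle, 15 of 19 genes of the regulatory particle (78.9%) and 7 of 14 genes of the core (50%) were marked. With classes of 6 to 13 genes, 1 gene moves a share by many percentage points, and the difference between classes was not tested.

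**Figure D1:**
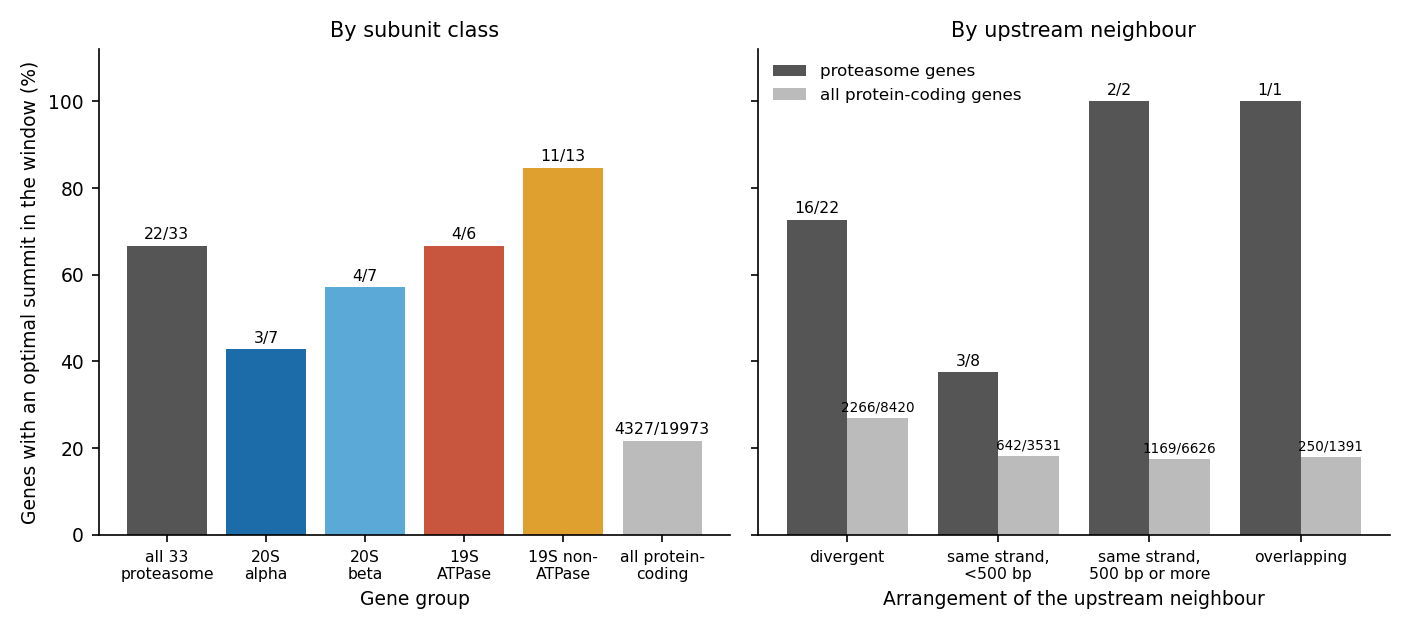
Bars give the percent of genes with an optimal summit in the promoter window (y axis), by subunit class (left) and by the arrangement of the nearest protein-coding neighbour upstream (right), with marked and total genes above each bar. The 19S non-ATPase genes reached 84.6%, and in each arrangement the proteasome genes stood above all genes of the same arrangement. The same-strand class with a gap of 500 bp or more holds only 2 proteasome genes. The overlapping class holds only 1, rpt-4, whose summit lies before an internal 5' end.

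Peak strength is given as the signal of each replicate divided by that replicate's median over the optimal peaks, because each deposited list has a scale of its own. A value of 1 is thus a median peak, and the spread is the SD of the 2 replicates. The rank is that of the pooled signal, with rank 1 the strongest of the 7262.

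The strongest proteasome peak was at rpn-3, which encodes a lid subunit (chrIII:8447035-8447284, summit at -183 bp from the 5' end). Its relative signal was 4.08 in replicate 1 and 3.15 in replicate 2 (3.62 ± 0.66, SD, n = 2). It ranked 131 in the pooled list, 96 in replicate 1 and 207 in replicate 2. The same summit lay at -261 bp from hsp-110, a chaperone gene of the Hsp70 superfamily on the opposite strand.

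Among the other lid genes, rpn-9 had the next strongest peak, with 1.65 in replicate 1 and 1.72 in replicate 2 (1.68 ± 0.05) at -254 bp. At rpn-11, whose product removes ubiquitin chains from substrates, the summit lay at 17 bp inside the untranslated first exon, with 1.22 and 1.75 in replicates 1 and 2. It was the only strongest proteasome peak downstream of the 5' end. The peaks of rpn-12, rpn-8 and rpn-5, further lid genes, were close to or below a median peak, at 0.90 ± 0.16, 0.85 ± 0.03 and 0.90 ± 0.27 times the median. The rpn-7 peak was lower, with 0.81 in replicate 1 and 0.48 in replicate 2 at -384 bp. A second rpn-8 peak, at -901 bp in a coding exon of mrps-6, had no matching region in replicate 1 and 0.70 in replicate 2.

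The lid gene rpn-6.1 had 2 peaks before 2 different 5' ends. The upper one lay at -280 bp from the outermost 5' end, in an intron of the neighbour F57B9.1, with 1.23 in replicate 1 and 0.88 in replicate 2. The other lay at -421 bp from an internal 5' end, in an intron of rpn-6.1 itself, with 0.73 in replicate 1 and 1.29 in replicate 2. The ATTGTCAT run was at the intronic peak, and the replicates ranked the 2 peaks in opposite order. Its paralogue rpn-6.2 had no region in any list.

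Of the scaffold and receptor genes, rpn-2 had 1.22 in replicate 1 and 1.56 in replicate 2 at -323 bp. The other large scaffold gene, rpn-1, had the weakest strongest peak of the 19S genes, with 0.62 and 0.55 in replicates 1 and 2 at -408 bp. The ubiquitin receptor gene rpn-13 had a median-like peak of 0.95 ± 0.03 at -314 bp. The other ubiquitin receptor gene, rpn-10, was unmarked. It lies 118 bp behind mrpl-9 on the same strand, and mrpl-9 was marked, with a summit 1394 bp upstream of rpn-10.

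In the ATPase ring, rpt-2 had the strongest peak, with 1.34 in replicate 1 and 1.65 in replicate 2 (1.498 ± 0.217). The rpt-2 summit lay within the noncoding gene F29G9.10. The rpt-1 peak was steady at 0.87 and 0.95 in replicates 1 and 2. The peaks of rpt-4 and rpt-6 were higher in replicate 2 than in replicate 1: rpt-4 had 0.61 and 1.47 in replicates 1 and 2, and rpt-6 had 0.49 and 1.12. The rpt-4 summit lay in an intron, before an internal 5' end, and rpt-4 was not marked when only the outermost 5' end was used. The rpt-6 summit was unshared, since it lay at -1151 bp from his-72, a histone H3 variant gene, beyond that gene's window. Of the unmarked ATPase genes, rpt-5 had no region in any list. At rpt-3 only replicate 2 had a region, at -681 bp and rank 3995 of that replicate.

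Of the core beta genes, pbs-1 stood highest (chrIV:1709865-1710023, summit at -191 bp), with 2.14 in replicate 1 and 1.96 in replicate 2 (2.05 ± 0.13). It encodes one of the beta subunits with a proteolytic site. The marked pbs-2, another proteolytic subunit gene, had 0.92 and 1.08 in replicates 1 and 2. The structural beta genes pbs-3 and pbs-7 had 1.23 ± 0.33 and 0.94 ± 0.15. The remaining proteolytic subunit gene, pbs-5, was unmarked, as were pbs-4 and pbs-6. No list had a region at pbs-4, whose nearest optimal summit was 34778 bp away.

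Of the core alpha genes, pas-4 had 1.74 in replicate 1 and 2.32 in replicate 2 (2.03 ± 0.41) at -148 bp. The summit lay within the noncoding gene C36B1.16, between pas-4 and rpb-3, an RNA polymerase II subunit gene. The pas-3 peak was the weakest marked one, with 0.39 and 0.64 in replicates 1 and 2 and rank 7224. Just inside the end of the optimal list, it had a pooled signal of 34.9 (lowest in the list 34.7). Just outside stood pas-6 at rank 8451 with 29.1 and pas-7 at rank 8546 with 28.7.

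The pas-5 peak at -988 bp differed most between replicates. Its relative signal was 2.75 in replicate 1 and 0.42 in replicate 2 (1.59 ± 1.65), and its rank was 393 in replicate 1 and 9399 in replicate 2. The summit lay inside the snoRNA gene F25H2.15, and its position had the largest SD between replicates of the strongest proteasome peaks (62.9 bp). The second pas-5 peak, at -330 bp, had 0.81 in replicate 1 and 1.30 in replicate 2 and kept pas-5 marked without the first. Whether the snoRNA gene has a part in the first peak was not tested. It was the only proteasome peak within 300 bp of a small RNA gene.

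**Figure D2:**
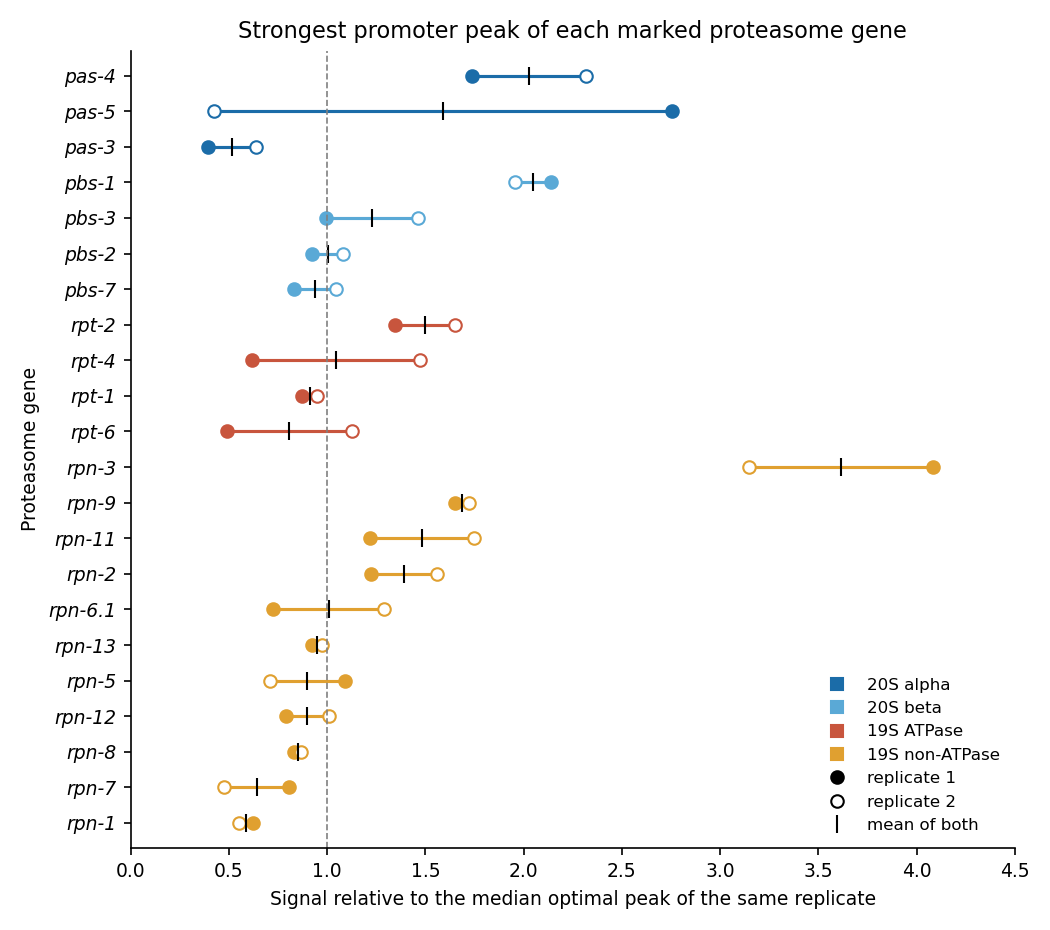
Each row is 1 of the 22 marked proteasome genes, ordered by class and mean; the x axis is the signal of its strongest promoter peak divided by the median optimal peak of the same replicate, with filled points for replicate 1, open points for replicate 2 and a tick for their mean. The rpn-3 points lie between 3.15 and 4.08, to the right of all others, and the 2 points of pas-5 are the farthest apart.

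As a set, the marked proteasome genes had peaks of ordinary strength. The median relative signal of their strongest peaks was 1.01 (range 0.52 to 3.62), against 1.09 over all marked genes. Their median rank was 3136, against 3126 over all marked genes, and 7 of 22 (31.8%) ranked within the first 1815 of the list, against 30.4%. The shares and medians of strength thus lay near those of all marked genes, while the share of genes marked did not. By class the median was 1.59 for alpha, 1.11 for beta, 0.98 for ATPase and 0.95 for non-ATPase genes. The order was not stable between replicates: in replicates 1 and 2 the medians were 1.74 and 0.64 for alpha, 0.96 and 1.27 for beta, 0.74 and 1.30 for ATPase, and 0.92 and 1.01 for non-ATPase genes. The alpha median is the pas-5 peak at the snoRNA gene, and with the other pas-5 peak in its place it was 1.05.

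Each replicate alone gave a similar number of marked members. Among the strongest 7262 regions of replicate 1, 21 of 33 proteasome genes had a summit in the window, against 21% of all genes. In replicate 2 it was 22 of 33, against 21.7% of all genes. Both replicates had one at 18 genes: 9 non-ATPase, 3 ATPase, 4 beta and 2 alpha genes. By replicate 1 and by replicate 2, the non-ATPase count was 11 and 9, the ATPase count 3 and 5, and the alpha count 3 and 4, while the beta count was 4 in each.

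Of the 25 proteasome peaks, 24 had a region with a summit within 100 bp in both replicates, against 94.0% of all optimal peaks. Relative to each replicate's median, 17 of the 24 were higher in replicate 2 and 7 in replicate 1, against 50.7% of all optimal peaks higher in replicate 2. The median log2 ratio of replicate 1 to replicate 2 was -0.26 over the proteasome peaks and -0.01 over all optimal peaks. The SD of this ratio was 0.79 over proteasome peaks and 0.66 over all. Over the 24 peaks, which share both libraries and the control, Spearman's rho between replicates was 0.44, and 0.37 without rpn-3 (n = 23). With the pas-5 peak included, the replicates ranked the proteasome peaks only loosely alike, while rpn-3 and pbs-1 were high in both. No rho without the pas-5 peak or over all optimal peaks is given. Whether the proteasome peaks agreed less than others between replicates thus cannot be told from these values.

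**Figure D3:**
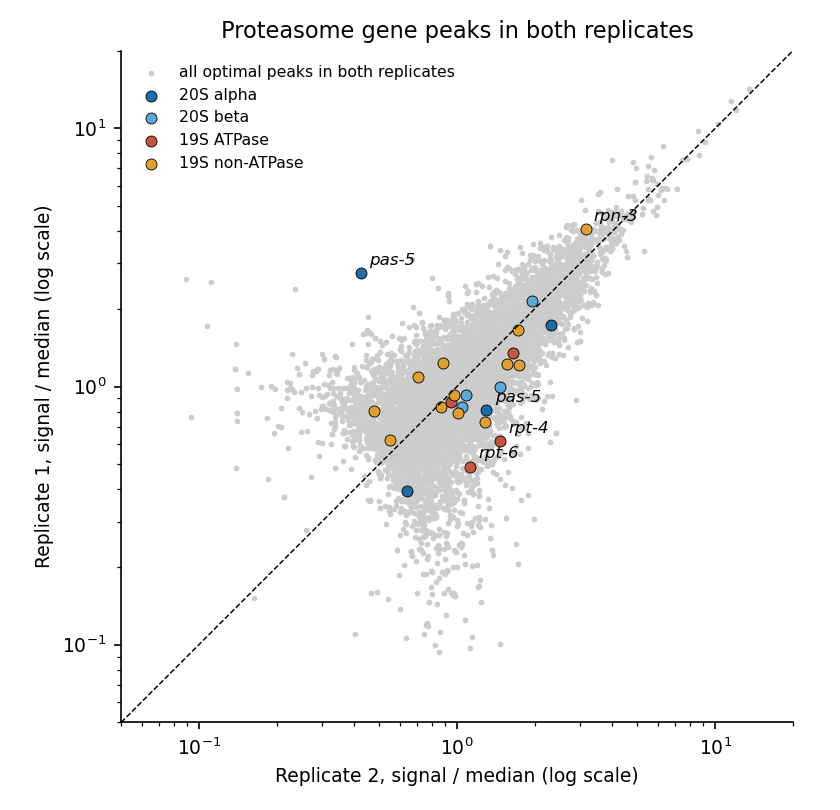
Relative signal in replicate 1 (y axis) against replicate 2 (x axis), both on log scales and divided by each replicate's median, for all optimal peaks found in both (grey) and the 24 proteasome peaks (coloured by class). Most coloured points lie below the dashed line of equal values (17 of 24 higher in replicate 2), and the pas-5 peak at the snoRNA gene lies far above it.

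The summits kept to a narrow band upstream of the genes. The median offset of the strongest peaks was -187 bp, against -222 bp over all marked genes. Of the 22, 18 lay between 100 and 450 bp upstream (81.8%), against 52.0% of all marked genes, a range chosen after the positions were seen. Outside that band were rpn-5 at -40 bp, pbs-7 at -95 bp, rpn-11 at 17 bp and pas-5 at -988 bp. The median SD of a summit's position between replicates was 15.9 bp, and the peaks were 139 to 364 bp wide. By class the median offset was -270 bp for non-ATPase, -158.5 bp for ATPase, -177.5 bp for beta and -148 bp for alpha genes.

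**Figure D4:**
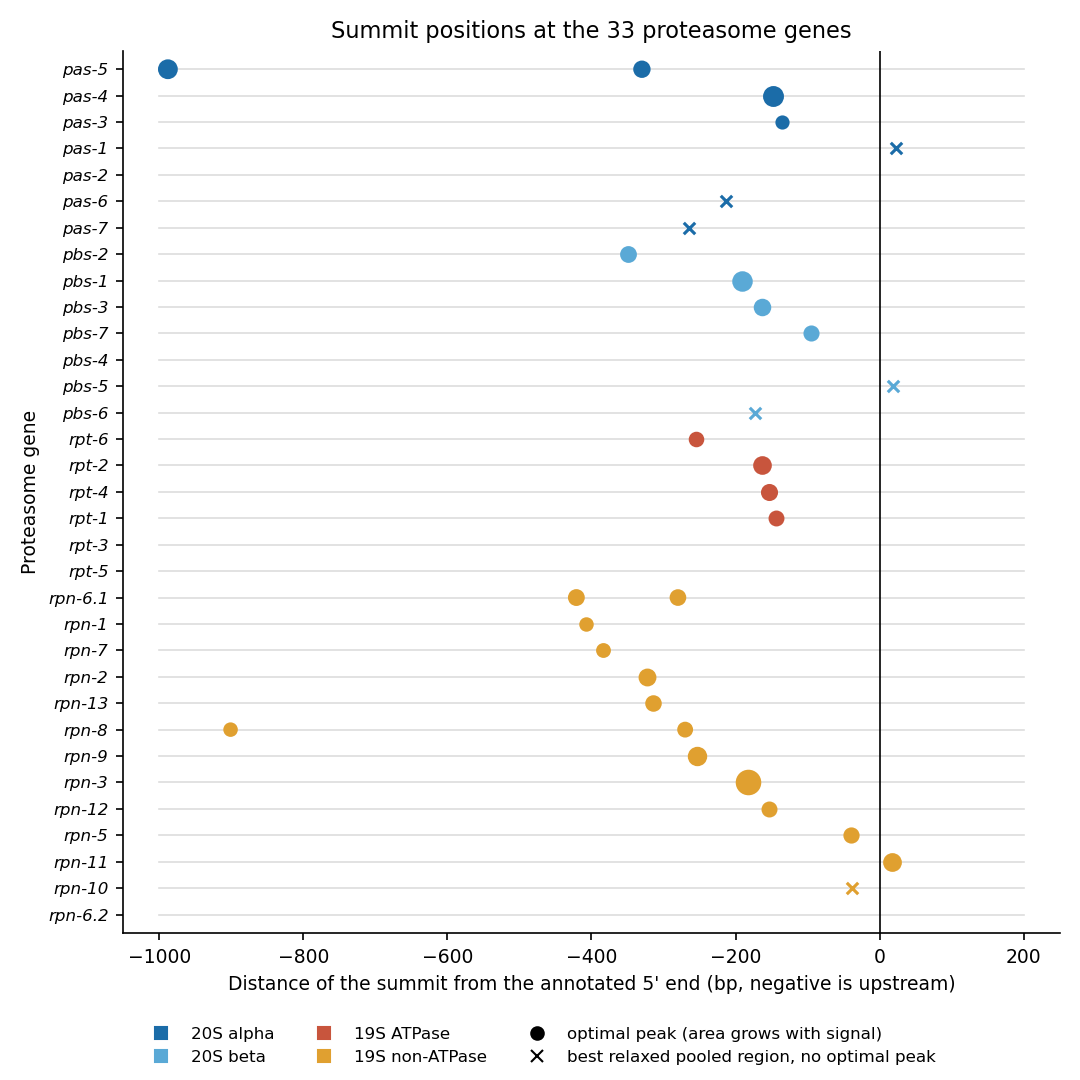
Each row is 1 of the 33 proteasome genes, and the x axis is the distance of the summit from the annotated 5' end in bp. Filled circles are the 25 optimal peaks, with area growing with pooled signal, and crosses are the best relaxed pooled regions of 6 unmarked genes. Most circles lie between 100 and 450 bp upstream.

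Most proteasome genes have their promoter back to back with another gene. The nearest protein-coding neighbour upstream was divergent (on the opposite strand, facing away) at 22 of 33 members (66.7%), against 42.2% of all genes. Of these 22 members 16 were marked (72.7%), against 26.9% of all divergent genes. With a gap under 1000 bp it was 15 of 20, against 35.6%, and with a wider gap 1 of 2, against 20.9% (a split chosen after values were seen). All 9 non-ATPase genes with a divergent neighbour were marked, against 2 of 5 alpha, 3 of 5 beta and 2 of 3 ATPase genes.

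Of the members that lie less than 500 bp behind a neighbour on the same strand, 3 of 8 were marked (37.5%; pbs-3, rpn-11 and rpn-13), against 18.2% of all such genes. The unmarked ones were pas-1, pbs-5, rpn-6.2, rpn-10 and rpt-3. Both members with a same-strand gap of 500 bp or more (pas-5 and rpt-1) were marked, against 17.6% of all such genes. The rpt-4 gene, which overlaps a neighbour at its outermost 5' end, was marked too, against 18% of such genes. Its summit lay before an internal 5' end, and it was not marked by the outermost one. Genes in a tight same-strand row can be transcribed from the first gene of the row in C. elegans. Counting a member also when the first gene of its row was marked gave 23 of 33, with rpn-10 added, against 25.9% of all genes. Operon annotation was not used here.

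The strongest peak of 16 of the 22 marked members (72.7%) also lay in the window of another gene, against 36.5% of all marked genes, and all of these partner genes were on the opposite strand. For 15 of the 22 the nearest 5' end was that of the member. For 7 it was that of the partner: pas-3 (use-1, a SNARE gene, at -21 bp), pas-4 (rpb-3), pbs-2 (eif-6, a ribosome biogenesis and translation factor gene), rpn-1 (ribo-1), rpn-7 (F49C12.9, at -32 bp), rpt-2 (aps-1) and rpt-4 (nfyc-1). A peak in a shared promoter cannot be assigned to one of its 2 genes from these data. With each summit given only to the gene with the nearest 5' end within 1000 bp, 15 of 33 members were marked, against 3800 of 19973 genes in all.

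One partner gene works with the proteasome. The rpn-12 summit, at -153 bp, lay at -242 bp from rad-23, which encodes a shuttle factor that brings ubiquitinated proteins to the proteasome. Further partners were scc-1 (cohesin) at rpn-5, mrps-6 (a mitochondrial ribosomal protein) at rpn-8, and the less described K08D12.3 at pbs-1, F39H11.1 at pbs-7, C23G10.7 at rpn-2 and T06D8.9 at rpn-9. The 6 members with an unshared strongest peak were pas-5, pbs-3, rpt-1, rpt-6, rpn-11 and rpn-13. Of these, the pbs-3 summit lay in an untranslated exon of ulp-2, the neighbour 22 bp upstream on the same strand.

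Below the optimal threshold, signal was found at several of the 11 unmarked members. Of the 33 genes, 28 had some region of the relaxed pooled list in the window, against 38.7% of all genes. The relaxed lists hold peaks and background alike, with 30000 regions each. In replicate 1 it was 25 of 33, against 39.7%, and in replicate 2 it was 30 of 33, against 39.9%. Of the 11 unmarked members 6 had a pooled region (54.5%), against 21.8% of all unmarked genes: pas-1, pas-6, pas-7, pbs-5, pbs-6 and rpn-10. The pas-6 region was stronger by rank in replicate 1 (6033, against 16459 in replicate 2) and the pas-7 region in replicate 2 (15336 in replicate 1 and 6472 in replicate 2). At pas-2 only replicate 2 had a region, at rank 9266. No list had a region at pbs-4, rpn-6.2 or rpt-5.

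Genes that work with the proteasome were read from lists by role, which were chosen with earlier results of these data known. Ubiquitin and its activation were marked throughout, 4 of 4, against 21.7% of all genes. The genes ubq-1, ubq-2 and ubl-1 encode ubiquitin or a ubiquitin-like protein, alone or fused. They had 1.87 ± 0.35, 2.19 ± 0.42 and 2.15 ± 0.15 times the median, and the activating enzyme gene uba-1 had 2.03 ± 0.03. The median was 1.01 over the marked proteasome genes and 2.09 over these 4. Of 6 factors that bind the proteasome 3 were marked (50%): the deubiquitinase genes usp-14 (1.26 ± 0.33) and ubh-4 (0.94 ± 0.21), and aip-1 (1.74 ± 0.37). The unmarked ones were dss-1, psmd-9 and psme-3. Of the 3 shuttle factor genes rad-23 and ubql-1 (2.65 ± 0.48) were marked, and ddi-1 was not (2 of 3).

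Among 5 genes known to control proteasome transcription through SKN-1 in C. elegans, skn-1 itself (1.71 ± 0.27) and wdr-23, which encodes an inhibitor of SKN-1 (2.63 ± 0.01), were marked (2 of 5, against 21.7% of all genes). Unmarked were png-1, whose product processes a SKN-1 isoform, and sel-1 and sel-11 of endoplasmic reticulum degradation. Complexes whose subunits resemble the 19S lid were counted as well: 1 of 6 annotated genes of the COP9 signalosome (16.7%; csn-1, 0.86 ± 0.25) and 6 of 11 genes of the translation factor eIF3 (54.5%) were marked, against 21.7% of all genes. Within eIF3, eif-3.C had 3.94 ± 0.04 and eif-3.B 3.06 ± 0.21, close to rpn-3 in strength, while eif-3.G, eif-3.H, eif-3.I and eif-3.J had between 0.61 and 1.30. Differences between these lists and the proteasome genes were not tested.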

How the data were processed

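The deposited files were narrowPeak lists on the ce11 assembly. The authors' relaxed lists of peaks and background, for each replicate and the pooled replicates, and their optimal list were used. The signal of a region is the value the authors deposited from their peak caller, relative to a control shared by both replicates. The optimal list was found to be the 7262 strongest pooled regions. For the aligner, the caller, their versions and the threshold, no entry is given in the sources used here. Depth is unknown, since no read counts are listed.

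Summits were compared with the Ensembl release 115 annotation (29314 annotated 5' ends) using Python 3.11.15 with pandas 2.3.3 and numpy 2.4.6, and the window assignment was tested on simulated data. Replicate signals were divided by the replicate's median over the optimal peaks (29.4 in replicate 1 and 37.8 in replicate 2), with summits matched within 100 bp. The reference sequence was RefSeq's of the same build. All members, genes sharing a summit with one, and genes of the pathway lists were named. csn-7 did not match the annotation. Members and lists were chosen with earlier results of these data known. The alternatives were a stricter list, each replicate alone, a narrower window, outermost 5' ends, nearest-gene assignment, another background and other matching distances. The -log10 q values and the ce10 lists were not used.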

Additional observations from a re-analysis of the deposited data

How the results depend on the processing

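No result had a test, so none could lose a call. With the 3631 strongest optimal peaks only, 13 of 33 proteasome genes were marked, against 2478 of all genes (12.4%). The count was then 6 for non-ATPase and 2 for ATPase genes, the median relative signal was 1.48, and 9 strongest peaks were shared. With each summit given to the nearest 5' end only, 15 members were marked. By class that left 1 of 7 alpha genes (14.3%), below the share of all genes (3800 of 19973), and 2 ATPase genes, with by construction 0 shared strongest peaks. Leaving out replicate 1 gave 22 marked members, against 21.7% of all genes, and put ATPase (83.3%) above non-ATPase genes (69.2%). Leaving out replicate 2 gave 21, against 21%. The narrower window gave 22, against 17.3% of all genes, and the outermost 5' end 21, against 20.1%. Among genes with a relaxed pooled region, 22 of 28 members (78.6%), 4 of 4 ATPase genes and 91.7% of non-ATPase genes were marked, against 56.0% of all. Without peaks within 300 bp of a small RNA gene, an alternative chosen after seeing the data, 22 were marked, against 4204 of all genes. No paired analysis was possible because there was 1 group. With 2 replicates, SDs are rough, and an error of the shared control would appear in both.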
